A study of Rattus norvegicus and Mus musculus with 34 samples.

Results

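The 9 genes ND1, ND2, ND3, ND4, ND4L, ND5, ND6, ATP6 and ATP8 are those by which the mouse mitochondrial genome encodes subunits of complex I, 7 of them, and of ATP synthase, 2 of them. They were taken by their symbols from a table of 51912 genes measured by RNA sequencing in RAW264.7 cells, a mouse macrophage line of wild-type genotype, and all 9 were found. In the LPS group (6 samples) the cells had received 100 ng/ml of lipopolysaccharide (LPS), a bacterial cell wall component that activates macrophages, for 6 h. In the LPS+CGRP group (5 samples) they had received the same LPS together with 10 nM of calcitonin gene-related peptide (CGRP), a neuropeptide of sensory nerves. The comparison addressed which transcripts of activating macrophages differ when CGRP is present. Both groups had LPS, so the values say nothing of the effect of LPS itself, and a rat experiment of the same series was not used here. Both groups came from 1 cell line, and no source says that the samples came from separate cultures, so p-values measure the spread between these samples, which may be technical.

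Complex I passes electrons from NADH to ubiquinone and pumps protons out of the mitochondrial matrix, and ATP synthase uses the returning protons to make ATP. Most subunits of both are encoded in the nucleus. The mitochondrial genome contributes the membrane-embedded core of complex I and, for ATP synthase, the proton-channel subunit ATP6 and its small neighbour ATP8. These genes have no introns. Most of them are read from 1 long heavy-strand transcript that is cut into mRNAs, whereas ND6 is read from the opposite, light strand. ATP8 overlaps ATP6 and ND4L overlaps ND4, so 1 transcript cannot be cut into a whole mRNA for each gene of these pairs. In activated macrophages these complexes are known for the shift of energy metabolism between respiration and glycolysis.

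Libraries held between 55614185 and 71538840 reads, each from 2 sequencing runs that were summed, and the smallest, 55614185, was of the LPS group. Levels are given as reads per library scaled to a common total (CPM) after TMM scaling (trimmed mean of M values). The TMM factors ranged from 0.996 to 1.004. All 9 macrophage markers examined were measured, with summed levels of 11768 to 12294 CPM with LPS and 11692 to 12315 CPM with LPS+CGRP, although Mrc1 reached a mean of only 1.21 CPM with LPS. The markers of fibroblasts (6 genes), lymphocytes (6) and epithelium (5) were all below 1 CPM in every sample, and the 5 epithelial markers were listed at 0.

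All 9 genes lie on chromosome M (GRCm38/mm10, GENCODE vM21), each as a single exon. ND1 (chrM:2751-3707), ND2 (chrM:3914-4951), ND3 (chrM:9459-9806), ND4L (chrM:9877-10173), ND4 (chrM:10167-11544) and ND5 (chrM:11742-13565) are on the plus strand, as are ATP8 (chrM:7766-7969) and ATP6 (chrM:7927-8607). ND6 (chrM:13552-14070) is on the minus strand. Its sequence is 28.1% G and 5.97% C, whereas the sequences of the other 8 are 5.88% to 11.6% G and 22.1% to 30.0% C.

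Neighbouring members overlap in 3 places. The last 43 bases of ATP8 are the first of ATP6 in another reading frame, the last 7 bases of ND4L are the first of ND4, and the last 14 bases of ND5 are the complement of the last of ND6. The overlaps are printed 5′ to 3′ with the shared bases in capitals and 9 bases on either side in lower case (for ND5 and ND6, the 9 bases before). They are shown because a read within capitals alone cannot be given to 1 gene of the first 2 pairs, and cannot be given to 1 gene of the last pair unless strand was used in counting, which is not stated.
ATP8 into ATP6: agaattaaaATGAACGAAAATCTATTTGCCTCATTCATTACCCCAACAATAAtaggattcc
ND4L into ND4: cctactacaATGCTAAaaattattc
ND5 end: tatactcaaTTAATCTCGAGTAA
ND6 end: ttatcgagaTTACTCGAGATTAA

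Stretches of 4 members are also found, base for base, in pseudogenes on the minus strand of chromosome 1. ATP6 is identical over 678 of its 681 bases to Gm10925 (chr1:24613974-24614651). ND4L is identical over 294 of 297 bases to Gm10222 (chr1:24612407-24612700). ND3 shares an unbroken run of 342 of its 348 bases with Gm28438 (chr1:24612775-24613119). ND4 shares its first 876 of 1378 bases with Gm28439 (chr1:24611535-24612410). The copies of COX2, ATP6, COX3, ND3, ND4L and ND4 span 4031 bases of chromosome 1 and keep the mitochondrial order and spacing to within 1 base. The copies of COX2 and ATP6 are 233 bases apart, as are the genes themselves when their stop codons are left out. On chromosome M that gap holds most of ATP8. No copy of ATP8 is annotated in the gap on chromosome 1, whose sequence was not read.

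The 3 members that were copied along nearly their whole length are printed from the GENCODE vM21 transcripts, ND4L with all its 297 bases (chrM:9877-10173) and ND3 (chrM:9459-9758) and ATP6 (chrM:7927-8226) with their first 300. Capitals mark bases identical to the copy at the same position, and lower case marks a base that differs or lies past the end of the annotated copy. They are shown because almost any read from them matches 2 places in the genome.
ND3: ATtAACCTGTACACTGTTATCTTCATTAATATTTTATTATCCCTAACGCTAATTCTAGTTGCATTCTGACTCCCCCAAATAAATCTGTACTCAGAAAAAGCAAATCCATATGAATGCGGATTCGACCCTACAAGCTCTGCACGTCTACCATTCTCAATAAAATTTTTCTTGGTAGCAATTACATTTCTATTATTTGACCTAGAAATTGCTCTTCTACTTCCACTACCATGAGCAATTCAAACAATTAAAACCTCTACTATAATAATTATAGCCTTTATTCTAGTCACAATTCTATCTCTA
ND4L: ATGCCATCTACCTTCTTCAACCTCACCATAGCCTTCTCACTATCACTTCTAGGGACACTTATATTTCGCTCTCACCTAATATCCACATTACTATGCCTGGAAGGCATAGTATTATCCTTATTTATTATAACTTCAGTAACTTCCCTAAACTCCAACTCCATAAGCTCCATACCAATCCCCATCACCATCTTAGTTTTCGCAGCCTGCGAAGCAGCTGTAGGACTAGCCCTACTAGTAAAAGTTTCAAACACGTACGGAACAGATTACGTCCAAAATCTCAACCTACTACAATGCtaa
ATP6: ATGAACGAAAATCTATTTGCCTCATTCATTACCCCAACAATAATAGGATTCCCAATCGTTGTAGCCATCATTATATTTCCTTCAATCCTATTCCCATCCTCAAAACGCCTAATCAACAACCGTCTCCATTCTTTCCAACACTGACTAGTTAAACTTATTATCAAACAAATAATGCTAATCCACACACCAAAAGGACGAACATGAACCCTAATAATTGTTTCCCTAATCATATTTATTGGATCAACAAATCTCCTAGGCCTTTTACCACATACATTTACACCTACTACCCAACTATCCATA

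ND1 shared no stretch of 31 bases, the length searched for, with any nuclear GENCODE transcript. The longest shared run was 43 bases in ATP8 (its overlap with ATP6), 129 bases in ND2, 95 bases in ND5 and 39 bases in ND6. Reads had been assigned to both gene and copy. ATP6 received 15.2% to 21.2% of the reads of the pair per sample and its copy the rest. ND4L received 16.8% to 30.4%, and ND3 received 3.15% to 12.9%. ND4 received 99.3% to 99.7%. Reads counted at a copy cannot be told apart from reads of the mitochondrial gene within the identical stretch, so the values below are given for the gene alone and, where it matters, for gene and copy summed, an alternative chosen after seeing the data.

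Together the 9 members took 0.566%, 0.630% and 0.669% of the reads of a library (lowest, median and highest LPS sample), and 0.635%, 0.715%, 0.628%, 0.676% and 0.679% in LPS+CGRP replicates 1 to 5. With the 4 copies added, the shares were 0.855%, 0.920% and 0.974% with LPS, and 0.947%, 1.04%, 0.927%, 0.977% and 0.993% with LPS+CGRP. The groups overlapped in both cases, although all 5 LPS+CGRP shares with the copies were above the LPS median. In bulk RNA, a shift in the cells sampled and a different amount of these mRNAs per cell cannot be told apart.

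Levels per kilobase of gene differed widely between members of 1 genome. For the overlapping ATP8 and ATP6, and ND4L and ND4, they are levels of genes as counted, not of separate mRNAs. On the scale of CPM per kilobase, for the gene alone, the mean level with LPS was 2216 ± 132 for ATP8 and 2086 ± 78.6 for ND1 (SD, n = 6). ND2 followed at 872 ± 49.9, ND4 at 862 ± 80.2, ATP6 at 820 ± 108 and ND5 at 585 ± 34.8. ND4L stood at 115 ± 24.2, ND3 at 43.3 ± 20.1 and ND6 at 12.8 ± 0.943. The ranges over LPS samples overlapped between ATP8 and ND1, between ND2 and ND4 and between ND4 and ATP6. They did not overlap between the other neighbours in this order. Within a library, ATP8 was above ND1 in 6 of 6 LPS and 5 of 5 LPS+CGRP samples, ND2 above ND4 in 4 and 3, and ND4 above ATP6 in 4 and 4.

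The order depended on the copies for 3 members. With the copy summed, the level per kilobase was 4685 ± 119 CPM for ATP6, 2.12 times that of ATP8, which was the next. No copy of ATP8 is annotated on chromosome 1, so any reads placed there could not be added to ATP8. These levels of ATP6 and ATP8 are therefore not like for like. ND3 reached 569 ± 6.07 CPM per kilobase, within the range of ND5, and ND4L reached 494 ± 46.0. ND6 remained lowest by either account, with a mean of 12.8 CPM per kilobase, 38.5 times below ND4L with its copy. Whether the libraries were made by poly(A) or rRNA selection is not given. Whether ND6 was captured as fully as the other members is therefore not known. Its low count need not mean a low amount in the cells. ND6 rested on 377 to 556 reads per library, for which counting error alone gives a coefficient of variation of 4.70%, against 7.34% observed among LPS samples.

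**Figure D1:**
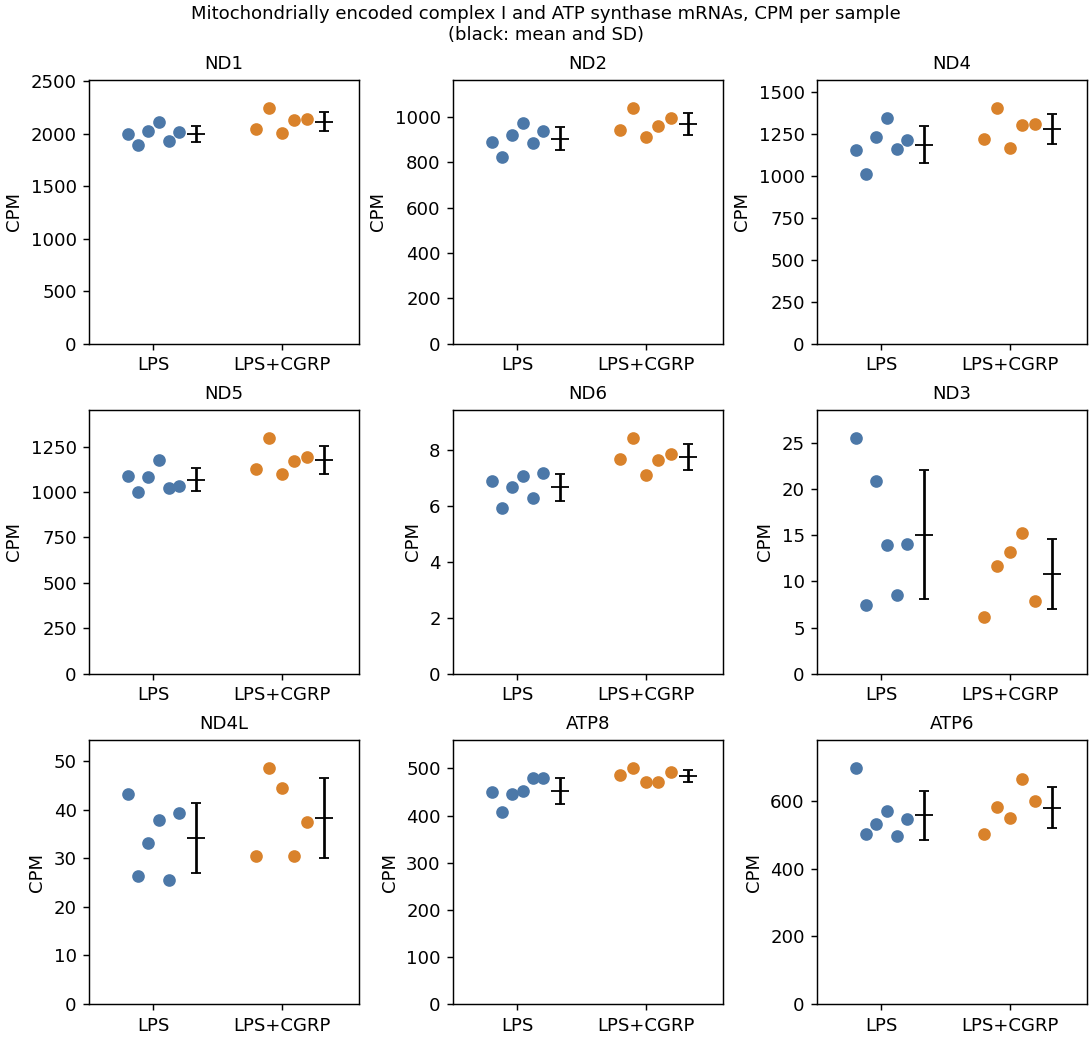
Level of each of the 9 genes in CPM (linear axis from 0) in the 6 LPS samples (blue) and the 5 LPS+CGRP samples (orange), with mean and SD in black. The groups overlap in every panel; ND6 comes closest to separation, with 4 of 5 LPS+CGRP samples above the highest LPS sample, and ND3, ND4L and ATP6 show the widest spread.

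No member passed the threshold between the groups. In the limma fit over 13492 genes with Benjamini-Hochberg adjustment, 0 of 9 members had an adjusted p under 0.05, as against 3 genes, 0.0222%, of all those tested, 0.00741% in the higher and 0.0148% in the lower direction (Cxcl10 and Cmpk2 lower and ENSMUSG00000075359 higher with CGRP). At an unadjusted p under 0.05, 5 members (ND1, ND2, ND5, ND6 and ATP8) had higher and 0 had lower levels with LPS+CGRP, where 4.9% of all genes had higher and 5.17% lower levels. On recovered reads, edgeR called 0 of 9 and gave 5 an unadjusted p under 0.05. DESeq2 also gave 5 members an unadjusted p under 0.05, but it gave an adjusted p to only 6 members, of which 0 were called. ND3, ND4L and ND6 had none, since it leaves genes with low counts out of the adjustment. The unadjusted p of ND6 in DESeq2 was 0.000581, below the 0.000997 of the last gene called there, so no verdict on ND6 comes from that fit. The members share 1 genome and mostly 1 primary transcript, so their 5 values are not independent. The groups of 0 members were free of overlap, as against 0.497% of all genes in the higher and 0.608% in the lower direction. The median log2 fold change was 0.10 over the 9 members and 0.0013 over all genes tested, and 8 of 9 members were above 0, as were 51.3% of all genes. With the deposited signal used without rescaling, the median of all genes itself was 0.11 and 0 members had an unadjusted p under 0.05.

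ND1 forms part of the channel through which ubiquinone enters complex I, and it had no identical nuclear stretch. Its level was 1896, 2007 and 2109 CPM in the lowest, median and highest LPS sample, and 2049, 2244, 2010, 2132 and 2140 CPM in the LPS+CGRP replicates. All 5 LPS+CGRP samples were above the LPS median and 3 were above every LPS sample. The log2 fold change was 0.083 (SE 0.028, 95% interval 0.023 to 0.14, limma adjusted p = 0.377).

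ND2, ND4 and ND5 are the large antiporter-like subunits that line the proton path in the membrane arm. ND2 was at 823, 905 and 974 CPM with LPS (lowest, median, highest), and at 943, 1039, 911, 961 and 994 CPM with LPS+CGRP. The LPS+CGRP samples were all above the LPS median and 2 were above all LPS samples. The difference was 0.10 on the log2 scale (SE 0.037, 95% interval 0.023 to 0.18, limma adjusted p = 0.398).

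ND4 was at 1011, 1188 and 1346 CPM with LPS, and at 1224, 1405, 1164, 1301 and 1310 CPM with LPS+CGRP. It had the widest spread of the 3, and 1 LPS+CGRP sample lay above all LPS samples. Its log2 fold change was 0.11 (SE 0.056, 95% interval -0.0065 to 0.23, limma adjusted p = 0.513), and 0.068 without LPS replicate 2.

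ND5, at the far end of the membrane arm, was at 998, 1059 and 1175 CPM with LPS, and at 1127, 1295, 1098, 1172 and 1193 CPM with LPS+CGRP. Of the LPS samples, 5 were below the lowest LPS+CGRP sample, and the highest, replicate 4, was above 3 of the LPS+CGRP samples. The log2 fold change was 0.14 (SE 0.041, 95% interval 0.056 to 0.23, limma adjusted p = 0.268).

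The samples took nearly the same order in these 4 genes. LPS replicate 2 was the lowest and LPS replicate 4 the highest of the LPS samples in ND1, ND2, ND4 and ND5, and LPS+CGRP replicate 2 was the highest and replicate 3 the lowest of theirs. Across the 11 samples, after centring on the group means, Pearson's r of the log2 levels ranged from 0.863 to 0.978 over the 6 pairs, a description in which the points share a library. ND6 had r of 0.772 to 0.910 with these 4, although it is read from the other strand.

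ND6, which takes part in the structural changes that couple electron transfer to proton pumping, had the largest positive log2 fold change of the members and the smallest p in limma. Its level was 5.91, 6.78 and 7.18 CPM in the lowest, median and highest LPS sample, and 7.69, 8.41, 7.09, 7.64 and 7.87 CPM with LPS+CGRP. Only LPS replicate 6 was above the lowest LPS+CGRP sample, replicate 3, so the groups overlapped by these 2 samples. The log2 fold change was 0.20 (SE 0.053, 95% interval 0.091 to 0.31, limma adjusted p = 0.217), a difference of the means of 16.1%. With each sample left out in turn, the log2 fold change of ND6 stayed between 0.17 and 0.23 and its adjusted p between 0.0856 and 0.480.

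ND3 and ND4L are small subunits at the joint of both arms of complex I and next to its quinone channel, and both have nearly whole copies on chromosome 1. ND3 alone was at 7.45, 14.0 and 25.5 CPM with LPS, and at 6.14, 11.7, 13.1, 15.3 and 7.83 CPM with LPS+CGRP. The groups overlapped over most of their range, and the log2 fold change was -0.40 with an interval from -0.98 to 0.17 (SE 0.27, limma adjusted p = 0.642). It was -0.23 without LPS replicate 1 and also without LPS+CGRP replicate 1, and -0.57 without LPS replicate 2. ND3 summed with Gm28438 was at 195, 199 and 200.9 CPM with LPS, and at 195, 192, 204, 199 and 197 CPM with LPS+CGRP. The log2 fold change of the sum was -0.0054 (SE 0.015, 95% interval -0.038 to 0.027, limma adjusted p = 0.945). The interval of the sum lies below the estimates of the other 8 members, but the difference between ND3 and the others was not tested.

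ND4L alone was at 25.5, 35.5 and 43.2 CPM with LPS, and at 30.5, 48.5, 44.5, 30.4 and 37.5 CPM with LPS+CGRP. The log2 fold change was 0.16 (SE 0.14, 95% interval -0.13 to 0.45, limma adjusted p = 0.730). With 1 sample left out it ranged from 0.070, without LPS+CGRP replicate 2, to 0.24, without LPS+CGRP replicate 1. It was 0.093 and 0.083 without LPS replicates 2 and 5 and 0.10 without LPS+CGRP replicate 3. With Gm10222 summed, ND4L was at 122, 150 and 163 CPM with LPS, and at 151, 179, 147, 151 and 159 CPM with LPS+CGRP. LPS+CGRP replicate 2 was the only sample above the LPS range, and the log2 fold change was 0.10 (SE 0.058, 95% interval -0.022 to 0.23, limma adjusted p = 0.571).

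ATP8, a short protein that helps to hold the membrane part of ATP synthase together, was at 406.5, 451 and 480 CPM with LPS. With LPS+CGRP it was at 486, 500, 471, 472 and 492 CPM. The LPS+CGRP samples lay closely together, with a coefficient of variation of 2.64% against 5.97% with LPS, and 3 of 5 were above all LPS samples. The log2 fold change was 0.10 (SE 0.033, 95% interval 0.031 to 0.17, limma adjusted p = 0.366).

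ATP6, the subunit whose half-channels let protons reach the rotor, was at 498, 540 and 698 CPM with LPS, and at 504, 583, 550, 667 and 602 CPM with LPS+CGRP. The highest level of all 11 samples was in LPS replicate 1, so the LPS group enclosed the LPS+CGRP group, and the log2 fold change was 0.061 (SE 0.075, 95% interval -0.097 to 0.22, limma adjusted p = 0.832). It was 0.13 without LPS replicate 1 and 0.11 without LPS+CGRP replicate 1, but 0.036 and 0.032 without LPS replicates 2 and 5 and 0.010 without LPS+CGRP replicate 4. ATP6 summed with Gm10925 was at 3116, 3163 and 3295 CPM with LPS, and at 3308, 3477, 3248, 3372 and 3420 CPM with LPS+CGRP. After the sum, 4 of 5 LPS+CGRP samples were above all LPS samples, and the log2 fold change was 0.077 (SE 0.021, 95% interval 0.033 to 0.12, limma adjusted p = 0.235). Summed in this way, ATP6 was past the threshold with DESeq2 (log2 fold change 0.074, adjusted p = 0.0187). That fit called 91 of the 4392 genes to which it gave an adjusted p, 14 of them higher and 77 lower. ND6 had no adjusted p in that fit (DESeq2 unadjusted p = 0.000582). With limma and 1 sample left out, the adjusted p of ATP6 with its copy was 0.143 to 0.515.

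**Figure D2:**
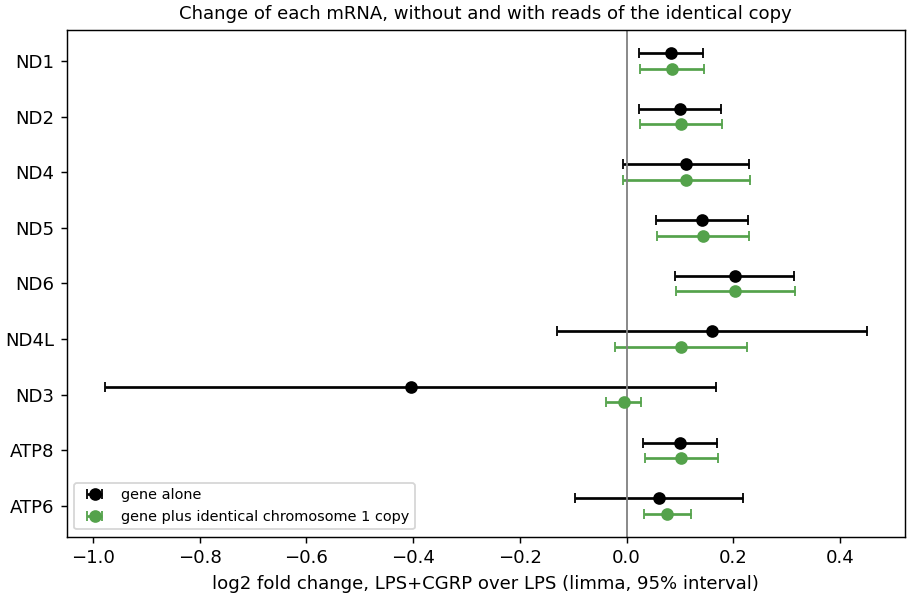
Log2 fold change of LPS+CGRP over LPS with its 95% interval from limma, for each gene alone (black) and with the reads of the identical chromosome 1 copy added (green; ND4, ND4L, ND3 and ATP6 have one). The interval of ND3 shrinks from -0.98 to 0.17 to between -0.038 and 0.027, and that of ATP6 from -0.097 to 0.22 to between 0.033 and 0.12, while those of ND1, ND2, ND5, ND6 and ATP8 barely move.

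Both runs of a sample gave close levels for the members without a whole annotated copy. The largest ratio of depth-scaled reads between the runs of 1 sample was 1.01 for ND1, 1.04 for ND2, 1.02 for ND4, ND5 and ATP8, and 1.20 for ND6, whose counts are low. ND3 went as far as 12.5, in LPS replicate 2, with 439 reads in run 1 and 35 in run 2. ND4L reached a ratio of 1.93 and ATP6 1.27. Over the 11 samples, the mean chi-square of run against run (1 degree of freedom, about 1 where counting error alone acts) was 134 for ND3, 134 for ATP6 and 40.0 for ND4L, and 0.745 for ATP8. The median over all genes tested was 1.11, and ND3 and ATP6 ranked 13 and 14 among the 13492.

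Summing gene and copy brought the runs together. The mean chi-square of the sum was 0.869 for ND3, 1.28 for ND4L, 1.79 for ATP6 and 1.02 for ND4, and the largest run ratio was 1.03, 1.05, 1.01 and 1.01. The spread between samples narrowed as well, from a coefficient of variation of 46.5% to 1.07% for ND3, 21.0% to 9.32% for ND4L and 13.2% to 2.54% for ATP6 in the LPS group. After the sum, ATP6 had r of 0.734 to 0.920 and ND4L of 0.801 to 0.927 with ND1, ND2, ND4 and ND5 over the 11 samples, against 0.287 to 0.455 and 0.429 to 0.530 for the genes alone. ND3 had r of 0.302 to 0.424 alone and of -0.446 to -0.331 with its copy. ATP8, which has no annotated copy, followed ND1, ND2, ND4 and ND5 less closely, with r of 0.277 to 0.626. With ATP6, which it overlaps, ATP8 had r of 0.017 for the genes alone and of 0.216 with the copies summed.

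**Figure D3:**
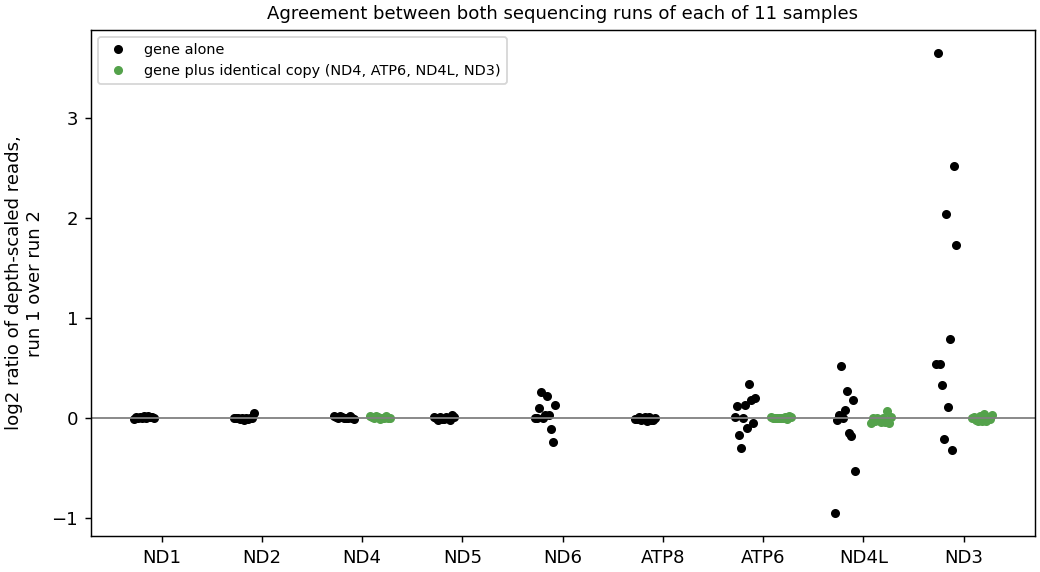
Log2 ratio of depth-scaled reads between run 1 and run 2, 1 point for each of the 11 samples, for each gene alone (black) and with its identical copy added (green). Points of ND1, ND2, ND4, ND5 and ATP8 lie at 0, those of ND3 range to a 12.5-fold difference, and all points of the sums return to near 0.

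The ratio of 2 members within a library does not depend on library scaling, and 3 pairs of neighbours were compared. ND4L overlaps ND4 and ATP8 overlaps ATP6 within 1 transcript. The ratios of these pairs cannot decide whether separate mRNAs changed unequally, and they depend on how reads were divided between genes and copies. ND6 over ND5, light against heavy strand, had a log2 ratio of reads of -7.40, -7.35 and -7.17 in the lowest, median and highest LPS sample, and of -7.27, -7.26 and -7.20 with LPS+CGRP. The size of this ratio also depends on how fully each RNA was captured, which is not known. All 5 LPS+CGRP samples were above the LPS median, and LPS replicate 6 was above all of them. The mean difference was 0.075 (two-sided exact permutation test, p = 0.0866, adjusted over the 3 ratios p = 0.260). Without LPS replicate 6 the difference was 0.11 (exact permutation p = 0.00794, adjusted p = 0.0238), so the result rests on that library. All LPS+CGRP samples were then above all LPS samples, and this p is the smallest that 5 against 5 samples allow.

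ND4L over ND4 had a mean log2 ratio of -5.14 ± 0.264 with LPS (SD, n = 6) and of -5.09 ± 0.302 with LPS+CGRP (n = 5), a difference of 0.051 (exact permutation p = 0.755, adjusted p = 0.755). With the copies summed the spread fell to an SD of 0.0464 and 0.0526, and the difference was -0.010 (exact permutation p = 0.749, adjusted p = 0.749). ATP8 over ATP6 had a mean log2 ratio of -0.297 ± 0.193 with LPS and of -0.257 ± 0.162 with LPS+CGRP, a difference of 0.040 (exact permutation p = 0.716, adjusted p = 0.755). With the copy summed into ATP6 the ratio was -2.82 ± 0.0935 with LPS and -2.80 ± 0.0252 with LPS+CGRP, a difference of 0.026 (exact permutation p = 0.567, adjusted p = 0.749). The smallest p that this test allows with all samples is 0.00216.

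**Figure D4:**
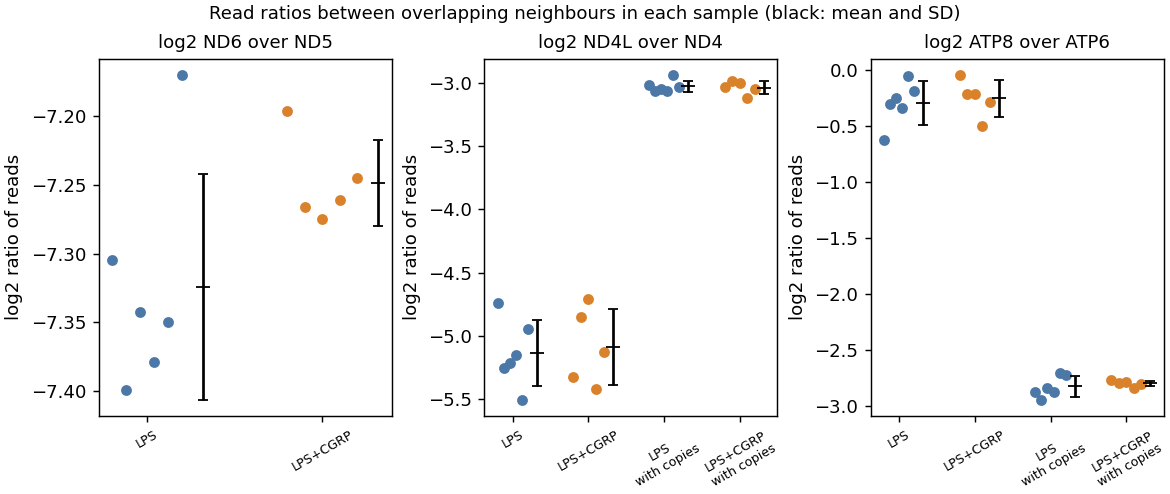
Log2 ratio of reads of ND6 over ND5, ND4L over ND4 and ATP8 over ATP6 in each LPS (blue) and LPS+CGRP (orange) sample, with mean and SD in black; the right pairs of points in the last 2 panels have the identical copies summed, and each panel has its own axis. The highest ND6 over ND5 ratio, -7.17, is in an LPS sample, and the copies shift ATP8 over ATP6 from about -0.297 to -2.82 with LPS.

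The other mRNAs of the mitochondrial genome had like values. CYTB of complex III was at 1756 ± 124 CPM with LPS (n = 6) and 1881 ± 90.5 CPM with LPS+CGRP (n = 5), a log2 fold change of 0.10 (SE 0.041, limma adjusted p = 0.441). The complex IV genes COX1, COX2 and COX3 had log2 fold changes of 0.092, 0.13 and 0.034 alone (limma adjusted p = 0.518, 0.677 and 0.902), and 0.091, 0.11 and 0.045 with their chromosome 1 copies. Of the rRNAs, which the table lists without symbols, mt-Rnr2 was at 107 ± 3.32 and 115 ± 4.42 CPM (log2 fold change 0.11, SE 0.025, limma adjusted p = 0.158) and mt-Rnr1 at 203 ± 7.05 and 210 ± 4.66 CPM (log2 fold change 0.047, SE 0.022, limma adjusted p = 0.489). The 22 mitochondrial tRNAs were listed at 0 in all samples.

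Nuclear subunits of the same complexes had small differences, mostly of the other sign, except with the deposited signal used without rescaling. There all 37 and 18 nuclear subunits were above 0, but the median of all genes was itself raised to 0.11. The nuclear medians of 0.091 and 0.093 were below it, and that of the 7 complex I members, 0.23, was above it. Of 37 nuclear complex I subunits, 0 were past the threshold of limma, and the median log2 fold change was -0.025. At an unadjusted p under 0.05 in limma, 0 had higher and 6 had lower levels, where 4.9% of all genes had higher and 5.17% lower levels. Of the 37, 33 had a log2 fold change below 0, where 51.3% of all genes were above 0. Ndufb4, an accessory subunit of the membrane arm, was at 19.1 ± 0.461 CPM with LPS and 17.8 ± 0.867 CPM with LPS+CGRP (log2 fold change -0.096, SE 0.031, limma adjusted p = 0.366). Ndufb8, of the same arm, had a log2 fold change of -0.049 (SE 0.016, limma adjusted p = 0.376), and Ndufa2, of the matrix arm, one of -0.077 (SE 0.027, limma adjusted p = 0.396).

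Of 18 nuclear ATP synthase subunits, 0 were past the threshold, and the median log2 fold change was -0.022. At an unadjusted p under 0.05 in limma, 4 had lower and 0 had higher levels, where 5.17% of all genes had lower and 4.9% higher levels. Of the 18, 15 were below 0, where 51.3% of all genes were above 0. Atp5mc2, which codes for the c subunit of the rotor ring, was at 150 ± 3.16 and 143 ± 3.78 CPM (log2 fold change -0.070, SE 0.019, limma adjusted p = 0.217). Atp5mc1, another gene for the same protein, had a log2 fold change of -0.065 (SE 0.019, limma adjusted p = 0.291), and Atp5f1e, of the central stalk, one of -0.096 (SE 0.035, limma adjusted p = 0.398). Whether the mitochondrial and nuclear subunits differ from each other in their response was not tested.

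**Figure D5:**
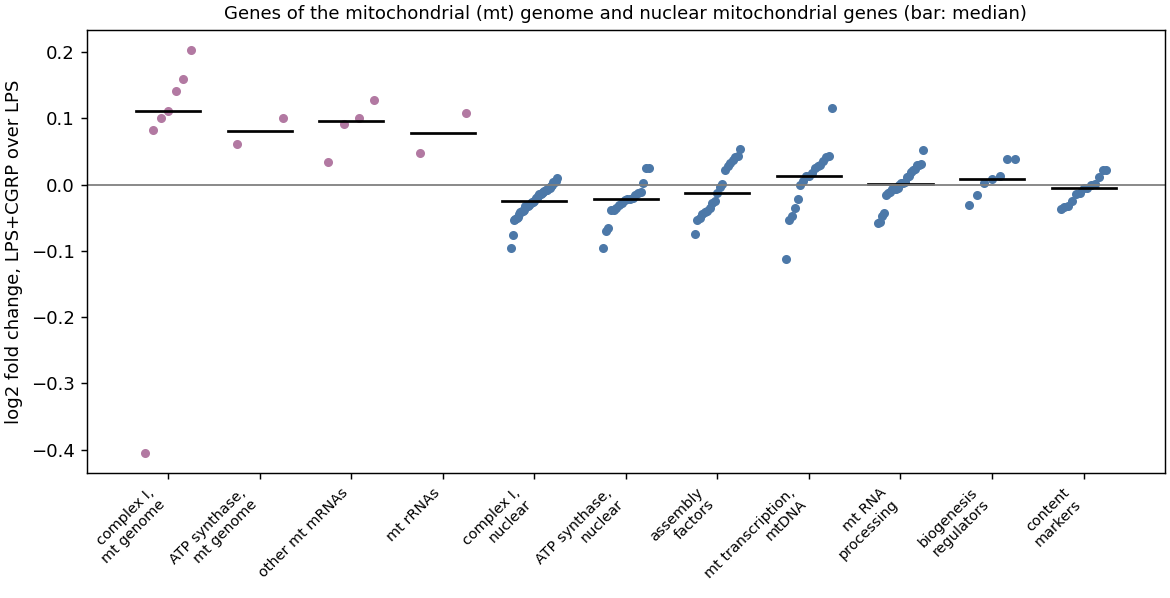
Log2 fold change of LPS+CGRP over LPS (limma) for each tested gene of the mitochondrial genome (purple) and of nuclear mitochondrial lists (blue), with the median of each list as a bar. All purple points but ND3 lie above 0. Most points of the nuclear complex I (33 of 37) and ATP synthase subunits (15 of 18) lie below 0, where 51.3% of all genes were above 0. Without rescaling of the deposited signal all 37 and 18 were above 0, as was the median of all genes, 0.11.

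Genes that make, process or maintain mitochondrial RNA and DNA had no called member either. Of 19 assembly factors of both complexes, 0 passed and the median log2 fold change was -0.012; Ndufaf1 had a value of -0.074 (limma adjusted p = 0.482), Foxred1 of -0.045 (0.506) and Ndufaf4 of 0.043 (0.506). Of 17 genes for mitochondrial transcription and mtDNA maintenance, 0 passed and the median was 0.013. Tefm, the elongation factor of mitochondrial RNA polymerase, was at 10.7 ± 0.304 CPM with LPS and 9.83 ± 0.178 CPM with LPS+CGRP, and its groups did not overlap (log2 fold change -0.11, SE 0.032, limma adjusted p = 0.249), as was so for 0.608% of all genes in that direction. Tfb2m, a transcription initiation factor, had a log2 fold change of 0.042 (limma adjusted p = 0.539) and Mterf1a, which binds mtDNA at the end of the rRNA genes, of 0.12 (limma adjusted p = 0.604).

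Of 24 genes for mitochondrial RNA processing and turnover, 0 passed and the median log2 fold change was 0.00071. Fastkd5, needed for processing of mitochondrial precursors, had a value of 0.051 (limma adjusted p = 0.418), Ptcd1 of -0.057 (0.473) and Slirp, which stabilizes mitochondrial mRNAs, of -0.058 (0.492). Of 7 biogenesis regulators tested, 0 passed and the median was 0.0085, with Gabpa at 0.038 (limma adjusted p = 0.436), Pprc1 at 0.039 (0.466) and Gabpb1 at -0.031 (0.643). Of 13 markers of mitochondrial content, 0 passed, 0 had an unadjusted p under 0.05 in limma, and the median was -0.0058. The import genes Tomm40 and Tomm20 stood at -0.037 (limma adjusted p = 0.506) and -0.032 (0.558) and Phb2, a prohibitin, at -0.026 (0.584). The summed level of these markers was 4492 to 4555 CPM with LPS and 4467 to 4552 CPM with LPS+CGRP.

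Among 8989 genes outside the mitochondrial genome with a mean log2 CPM above 3, the 5 whose centred log2 levels were most like the mean of the 9 members over the 11 samples were Fam168a (Pearson's r = 0.877), Ube2h (0.866), Cic (0.864), Evi5l (0.852) and Rfx7 (0.842). These are the highest of many correlations over few samples. The mean was of the genes alone, so members with a wide spread weighed most in it. The coefficient of variation in the LPS group was 46.5% for ND3, 21.0% for ND4L and 13.2% for ATP6, against 3.77% for ND1. For ND3 it was 1.07% with the copy summed, and the copies were not summed here. Their log2 fold changes were 0.0087, 0.041, 0.015, -0.0074 and 0.061, and 0 of the 5 passed the threshold of limma.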

How the data were processed

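RNA of RAW264.7 cells was sequenced on the Illumina NextSeq 2000 from directional libraries. The authors trimmed reads with Cutadapt, aligned them with STAR to mm10 and counted them with featureCounts. Versions, annotation, strand setting, treatment of reads with several alignments, and poly(A) or rRNA selection are not given in the sources used here. The authors deposited a signal per gene and run, which equals whole reads times 1 factor per run (0.877 to 1.14, rising with the read total of the run, Pearson's r = 0.9997 over 22 runs). Reads were recovered by dividing by that factor, and 100% of values came out whole within 0.1 read.

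The deposited signal is no count, so log2 of TMM-scaled CPM plus 0.5 was tested with limma 3.58.1 (trended prior variance, filterByExpr, Benjamini-Hochberg over all genes tested). Ratios of recovered reads were compared by exact permutation. Bases shared with nuclear transcripts were searched by 31-base words, on both strands, in GENCODE vM21, and copies with a shared run of at least 200 bases were summed with their gene as an alternative added after seeing the data. The genes named are all members, the other mitochondrial mRNAs and rRNAs, the 3 genes with the smallest p of each mitochondrial list, and the 5 genes with the most similar pattern. The members and lists were chosen with earlier results of these data known. Of the list genes, 1 assembly factor and 1 content marker were not found, and 1 gene each of the transcription and biogenesis lists was removed by the filter.

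Alternatives were edgeR 4.0.16 and DESeq2 1.42.0 on recovered reads, RLE, library totals with and without mitochondrial genes, no rescaling, pseudocounts of 0.1 and 1, no filter or at least 10 CPM, each run alone, each sample left out, and the replicate number as a block. The tests were tried on simulated data. There limma called 13 of 50 genes changed by a log2 fold change of 0.1 and 28 of 48 changed by 0.2. It also called 9 of 13213 unchanged genes. Differences of the size seen in the members can therefore be missed. Software was matplotlib 3.10.9, scipy 1.17.1, pandas 2.3.3 and numpy 2.4.6 under Python 3.11.15, and R 4.3.3. Sequences of proteins were not used here.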

Additional observations from a re-analysis of the deposited data

Results flagged for a closer look

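The level of ATP6 in LPS replicate 1, 698 CPM, stood apart from the other LPS samples, the nearest of which was at 571 CPM; the gap took up 0.633 of the range, where Dixon's 95% limit for 6 samples is 0.625. In that sample 21.2% of the reads of ATP6 and its copy were counted at ATP6, the highest share of the 11 samples, and the sum of both was 3288 CPM, below the 3295 CPM of LPS replicate 4. It was the only one of 32 groups of values examined in this way, and chance alone is expected to mark about 5% of groups.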

How the results depend on the processing

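With 11 samples and 1 treatment time, p-values are limited by the spread between samples, and the level of ATP6, ND3, ND4L and part of ND4 by the copies. The count of members past the threshold was 0 in all 13 other ways of processing that kept all samples. Of these, the replicate block kept LPS replicate 6 in the fit but not in the group difference. ND6 could not be tested at a minimum of 10 CPM. DESeq2 gave no adjusted p for ND3, ND4L and ND6, so its 0 covers 6 members. The count was 0 with each sample left out (0 to 0), with and without the copies. It was 1, ATP6, of 8 members with an adjusted p (not ND6), with the copies summed in DESeq2. The cause was not tested.

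Of all genes tested, 3 passed (1 higher, 2 lower). The count was 0 with edgeR (1348 at an unadjusted p under 0.05), 91 with DESeq2 (14 higher, 77 lower, of the 4393 genes to which it gave an adjusted p), 11 with library totals (1 higher, 10 lower), 12 with totals without mitochondrial genes (2 higher, 10 lower), 18 without rescaling (11 higher, 7 lower), 14 at a minimum of 10 CPM (1 higher, 13 lower) and 7 with run 1 alone (0 higher, 7 lower). With the copies summed it was 91 with DESeq2 (of 4392), 12 with library totals, 14 with RLE and 25 with the replicate block. With 1 sample left out it ranged from 0 to 21, with and without the copies: it was 21 without LPS replicate 6, 0 without LPS replicates 1, 2 or 5 or LPS+CGRP replicates 2 or 5, and 1 without LPS+CGRP replicates 1 or 4. Without LPS replicate 3 it was 0 for the genes alone, and without LPS replicate 4 it was 6 with the copies summed. The cause of these shifts was not tested.

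Whether replicate numbers pair the samples was not decided. Correlations of the deviations from group means were -0.095 to 0.14 over 5 same-numbered pairs (mean 0.043), 2 of them above 0.1. Over 25 pairs of other numbers they were -0.23 to 0.14 (mean -0.0086), 3 of them above 0.1. Of 10 samples, 4 correlated best with their own number. With the replicate block 17 genes passed (2 higher, 15 lower) and 0 members. The log2 differences of ND6 over ND5, ND4L over ND4 and ATP8 over ATP6 were 0.11, 0.088 and 0.061. No LPS+CGRP sample has the number of LPS replicate 6, so the block takes that sample out of the group difference. The log2 fold change of ND6 was 0.223 with the block and 0.224 without LPS replicate 6, where 21 genes passed.

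Signs turned only where the log2 fold change or difference was small against the spread between samples. ATP6 alone had a log2 fold change of -0.016 in run 2 but of 0.13 in run 1. COX3 had one of -0.019 without LPS+CGRP replicate 4, and ND3 with its copy one of 0.0041 without LPS+CGRP replicate 2. ATP8 over ATP6 was -0.040 in run 1 and -0.027 to 0.10 with 1 sample left out, ND4L over ND4 -0.044 to 0.13 with 1 sample left out and -0.010 with the copies summed, and ND6 over ND5 0.061 to 0.11 with 1 sample left out. The cause was not tested.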

Other observations

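The mRNAs of complex IV had the same split between gene and chromosome 1 copy as ATP6, ND3 and ND4L. COX2 received 9.41% to 15.7% and COX3 33.3% to 42.9% of the reads of the pair per sample. COX1 is copied in part only, and it received 95.4% to 96.1%. The mean chi-square of run against run was 159 for COX2 and 256 for COX3 alone, and 2.11 and 1.38 with the copy summed. Among the 13492 genes tested, 116 had a mean chi-square above 10. Within the LPS group, COX2 with its copy ranged from 2164 to 2693 CPM and COX3 with its copy from 3164 to 3302 CPM.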
